A study of Mus musculus with 9 samples.

Results

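Small nucleolar RNA (snoRNA) genes were followed in the telencephalon, the forebrain region that gives rise to cerebral cortex and basal ganglia, of mouse embryos with and without Lats1 and Lats2. They were taken by symbol, as every gene whose symbol starts with Snora, Snord, snoU or Scarna, in mixed case or full capitals, followed by a number. The files listed 279 such genes among 34590, and the 166 with a summed count of at least 90 over the 9 libraries are described here. These were 69 box C/D genes of 137 listed, 71 box H/ACA genes of 106, 20 small Cajal body RNA (scaRNA) genes of 24 and 6 snoU-named genes of 12, whose box class the symbol does not give.

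SnoRNAs are short, stable, non-coding RNAs that guide proteins to other RNAs by base pairing. Box C/D snoRNAs carry the methyltransferase fibrillarin and direct 2′-O-methylation, box H/ACA snoRNAs carry the pseudouridine synthase dyskerin and direct the conversion of uridine to pseudouridine, and scaRNAs do the same for spliceosomal RNAs in Cajal bodies. Most are cut out of introns of host genes, many of which encode ribosomal or nucleolar proteins, and a few lie in imprinted clusters active in brain.

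The tested embryos were Lats1/2 double knockouts (dKO) in which Cre under the Nestin promoter acts in neural progenitors, so cells of other lineages may keep both genes, and the controls were labelled wild type (WT). Both groups were E12.5 embryos of mixed-lineage strain background, with 4 dKO and 5 WT embryos, 1 library each, and the labels name no litters. Lats1 and Lats2 are the Hippo pathway kinases that restrain the coactivators YAP and TAZ. Cells were counted, synthetic ERCC spike-in RNA was added in proportion to the cell number, and 350 ng of total RNA went into each stranded library.

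This allowed a pair of scales. Counts per 1000 spike-in counts compare RNA per counted cell, while CPM, counts scaled to a common library size by the trimmed mean of M-values (TMM), compare each gene with the typical gene of its library. Total gene counts were 16566763 to 45803152 in dKO and 12906561 to 39263370 in WT. Gene counts per spike-in count averaged 79.1 ± 5.90 in dKO and 58.1 ± 6.10 in WT (SD, n = 4 and 5). Over the 17182 genes tested, the median log2 fold change (dKO over WT) was 0.43 per spike-in count and -0.01 on the relative scale. Lats1 averaged 59.8 CPM in dKO and 132 CPM in WT (log2 fold change -1.15), and Lats2, which held 43.4 CPM in dKO and 27.0 CPM in WT, stood at 0.69; the labels do not name the exons removed, so a count over the whole gene does not check the Lats2 deletion. WT 2, WT 3 and WT 4 stood apart by reads in no gene, 39.3% to 41.3% of all reads, against 32.0% to 35.6% in dKO and 32.5% to 34.4% in WT 1 and WT 5, so results that depend on them are given with and without them.

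The sequences below show the features that separate the classes, for the snoRNA genes whose values are followed further on. They come from the GENCODE M21 annotation of the GRCm38 build, which matched 71 of the 166 genes by symbol; the counts were made on the older mm9 build, so no coordinates are given. The first 4 are box C/D genes. Capitals mark a C box (TGATGA in the first 20 bases) and a D box (CTGA in the last 20 bases). Snord70 is an exception, with no TGATGA in its first 20 bases and with ACA, left unmarked, in its last 8 bases.
Snord107: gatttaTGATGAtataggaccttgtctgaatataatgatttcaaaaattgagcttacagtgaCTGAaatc
Snord64: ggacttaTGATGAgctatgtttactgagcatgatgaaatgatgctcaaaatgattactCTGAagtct
Snord70: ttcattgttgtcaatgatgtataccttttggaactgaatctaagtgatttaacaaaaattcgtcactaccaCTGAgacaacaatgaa
Snord110: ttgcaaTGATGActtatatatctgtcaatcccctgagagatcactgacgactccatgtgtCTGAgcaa
The next sequences are of box H/ACA genes, with capitals on the ACA trinucleotide in the last 8 bases.
Snora31: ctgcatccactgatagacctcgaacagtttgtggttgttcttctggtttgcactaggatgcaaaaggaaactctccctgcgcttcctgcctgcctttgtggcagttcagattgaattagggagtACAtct
Snora73b: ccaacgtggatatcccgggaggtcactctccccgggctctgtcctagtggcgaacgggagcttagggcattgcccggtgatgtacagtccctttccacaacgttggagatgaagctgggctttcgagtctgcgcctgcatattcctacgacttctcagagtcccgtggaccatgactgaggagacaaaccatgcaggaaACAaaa
Scarna10, the gene of the set with the highest count, is shown by its first and its last 60 of 325 bases, with capitals on the C box and D box letters.
Scarna10, first bases: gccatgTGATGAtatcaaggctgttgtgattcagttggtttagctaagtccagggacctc
Scarna10, last bases: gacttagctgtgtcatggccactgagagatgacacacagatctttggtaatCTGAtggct
Snord107 and Snord64 lie on chromosome 7 in the annotated span of the gene model Gm38393, in the imprinted region of Snrpn. Snord70 lies in an intron of Nop58 on chromosome 1, and Snord110 in an intron of Nop56 on chromosome 2. Snora31 lies in an intron of Tpt1 on chromosome 14, and Snora73b in an intron of Rcc1 on chromosome 4. Scarna10 lies on chromosome 6 and overlaps an annotated exon of Ncapd2.

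The letters went with the class names. The class was read from the symbol, which itself names the box class, so these shares describe the genes and do not test the classes. TGATGA stood in the first 20 bases of 25 of 41 matched box C/D genes (61.0%) and 0 of 21 box H/ACA genes, searched on the transcript strand with overlaps allowed. CTGA stood in the last 20 bases of 40 box C/D genes (97.6%) and 2 box H/ACA genes (9.52%). ACA stood in the last 8 bases of all 21 box H/ACA genes and 6 box C/D genes (14.6%). Among all 1558 annotated mouse snoRNA and scaRNA transcripts the shares were 21.3%, 34.8% and 47.6% for the 3 motifs. The other 95 genes, 88 of them with symbols in human-style capitals, had no single match, so their sequence and the number of loci each symbol pools are not known here.

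The count was concentrated in few genes. Scarna10 alone held 190239 of 702391 counts, and the 20 scaRNA genes together held 51.3%, the box H/ACA genes 29.1%, the snoU-named genes 10.2% and the box C/D genes 9.41%. Box C/D genes were the shortest, with a median of 81 bases against 132 for box H/ACA and 140 for scaRNA genes, and 35 of the 41 matched box C/D genes were shorter than the 100-bp reads. Per base of length, the median summed count was 3.50 for box C/D, 5.33 for box H/ACA and 35.8 for scaRNA genes, and the highest were 83.2, 165 and 585. How far the preparation of total RNA libraries retains such short RNAs was not tested, so levels between classes describe these libraries. All 166 genes were above 0 in all 9 libraries, and all 166 were tested. Of the others, 70 had no count in any library and 43 had 1 to 89. Most genes with no count and a single annotated match overlapped an exon of their host, among them Snord47 in Gas5 and Snord22 in Snhg1. The counter sets aside reads that fit several genes, so a count of 0 there does not show that the RNA was absent. The cause of the zeros was not tested. Just inside the limit lay SNORA31 (summed count 90) and Snord82 (92), and just outside it SNORD59 (87) and SNORD125 (88).

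Per counted cell, snoRNA genes were higher in dKO by about as much as other genes were. Of 166 snoRNA genes, 71 rose and 1 fell (42.8% higher; edgeR quasi-likelihood test, adjusted p under 0.05 over all genes tested), while 61.1% of all genes tested rose and 0.698% fell. Their median log2 fold change was 0.45, a 1.37-fold higher level, beside 0.43 for all genes. The groups did not overlap, dKO above WT, for 47 of the 166 snoRNA genes, a smaller share than the 48.4% of all genes. With dKO below WT they did so for no snoRNA gene, beside 0.134% of all genes. In bulk RNA, fewer cells of a type and less RNA per cell cannot be told apart. DESeq2 called 71 higher and 0 lower and limma-voom 73 higher and 0 lower. When WT 2, WT 3 and WT 4 were left out, 60 rose and 0 fell, with a median of 0.54, beside 48.2% and 0.257% of all genes and a median of 0.43.

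The share called followed the depth of counting. Among the 55 genes with a summed count of 1000 or more, 34 rose (61.8%), whereas 25 of 67 genes with at least 300 but under 1000 counts (37.3%) and 12 of 44 genes with under 300 counts (27.3%) rose. Medians ran the other way, at 0.36, 0.47 and 0.54. The called rises lay between 0.25 and 1.16 on the log2 scale, and 4 of them exceeded 2-fold.

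By class, the medians per spike-in count were 0.54 for box C/D, 0.42 for box H/ACA, 0.34 for scaRNA and 0.29 for snoU-named genes. The number that rose was 29 of 69 box C/D, 33 of 71 box H/ACA, 6 of 20 scaRNA and 3 of 6 snoU-named genes; differences between classes were not tested. Summed box C/D counts per 1000 spike-in counts were 16.2, 19.6, 19.8 and 19.8 in dKO 1 to 4, against 12.8, 12.7, 16.3, 15.8 and 13.6 in WT 1 to 5. Summed box H/ACA counts were 48.3, 61.3, 63.1 and 60.8 in dKO, against 40.2, 40.1, 51.4, 49.8 and 39.6 in WT. Summed scaRNA counts were 85.0, 98.4, 97.1 and 95.9 in dKO, against 69.0, 74.6, 94.9, 91.5 and 78.3 in WT. In each of these 3 classes dKO 1 was the lowest dKO library and lay within the WT range, so the groups overlapped. The log2 ratio, taken as the difference between the group means of log2 sums, was 0.41 (SE 0.10) for box C/D, 0.40 (SE 0.12) for box H/ACA and 0.21 (SE 0.10) for scaRNA sums. Summed snoU-named counts averaged 20.0 ± 1.21 in dKO and 15.7 ± 1.76 in WT (SD, n = 4 and 5). All 4 dKO libraries lay above all 5 WT libraries, at a log2 ratio of 0.35 (SE 0.09). The gene snoU90 alone held 50018 of the 71829 snoU-named counts, so these sums mostly follow that gene. In CPM the snoU-named sums averaged 254 in dKO and 270 in WT, with overlapping libraries, at a log2 ratio of -0.09 (SE 0.04).

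On the relative scale the box C/D sums averaged 239 ± 9.55 CPM in dKO and 245 ± 17.9 CPM in WT, and the box H/ACA sums 739 ± 46.5 CPM in dKO and 761 ± 76.4 CPM in WT (SD, n = 4 and 5). Both differences lay within the spread, at -0.03 (SE 0.06) and -0.04 (SE 0.08). The scaRNA sums were 1215, 1167, 1235 and 1163 CPM in dKO, against 1274, 1500, 1489, 1500 and 1254 CPM in WT. All 4 dKO libraries lay below all 5 WT libraries, and the log2 ratio was -0.23 (SE 0.06). Scarna10 alone held 190239 of the 360069 scaRNA counts, so the scaRNA sums mostly follow that gene and do not describe the class as a whole. Leaving out WT 2, WT 3 and WT 4 gave ratios of -0.081 for scaRNA, 0.079 for box C/D and 0.10 for box H/ACA.

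**Figure D1:**
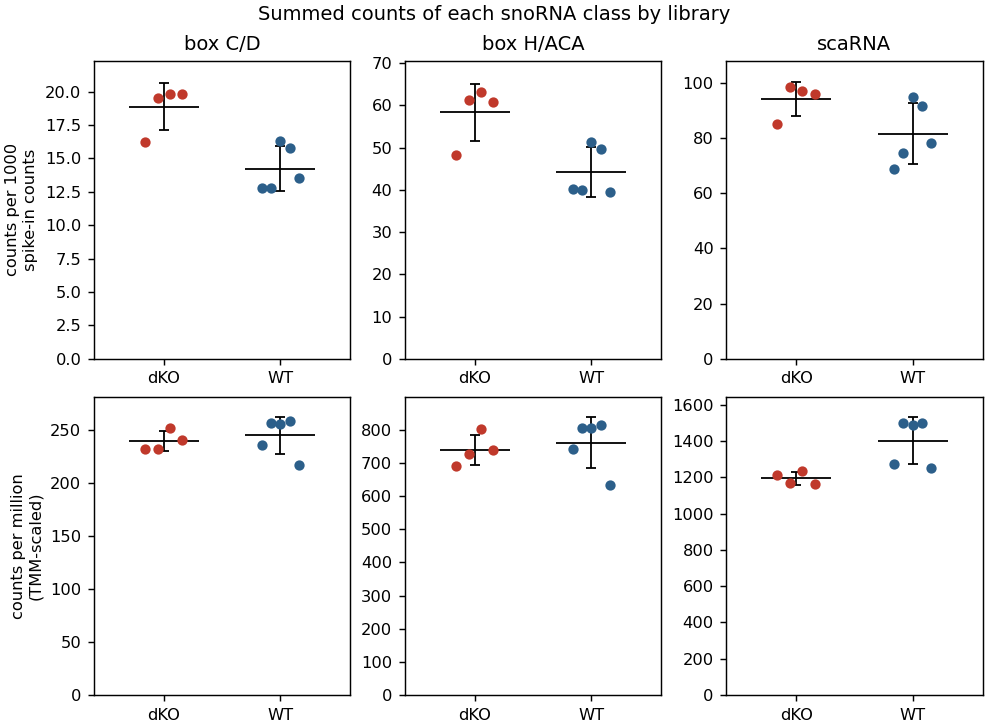
Summed counts of the 69 box C/D, 71 box H/ACA and 20 scaRNA genes in each library, per 1000 spike-in counts (top) and in TMM-scaled CPM (bottom). Points are libraries, with the mean and SD as a line and bar. Per spike-in count dKO averaged above WT in the 3 classes plotted, with overlapping libraries, and in CPM only the scaRNA sums separated the groups, dKO lower. Scarna10 held 190239 of the 360069 counts in the scaRNA sums.

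**Figure D2:**
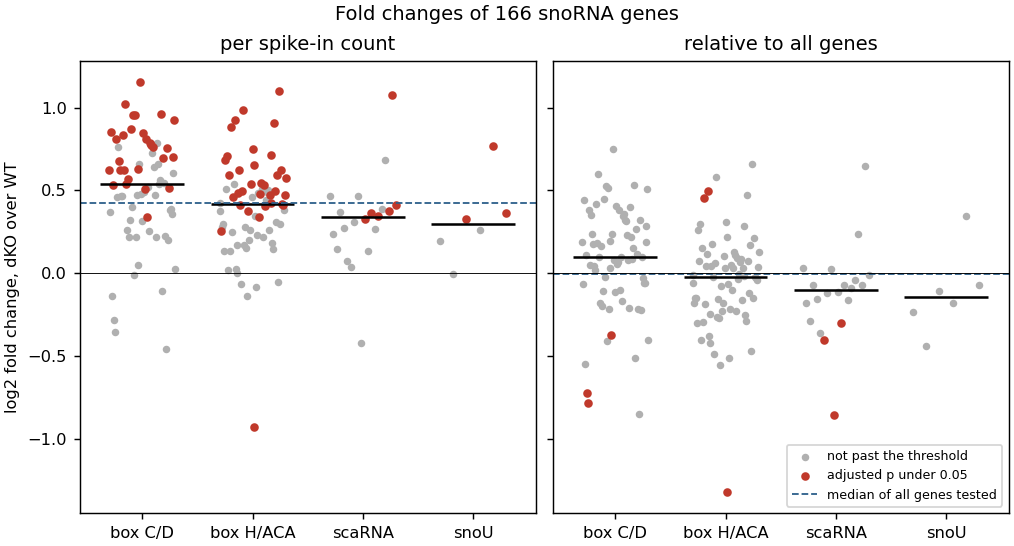
Log2 fold changes (dKO over WT) of the 166 genes by class, per spike-in count (left) and relative to all genes (right). Each point is a gene, red where the adjusted p was under 0.05, black bars are class medians and the dashed line is the median of all genes tested. Most genes lie above 0 per spike-in count, and they centre near 0 on the relative scale.

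Relative to all genes, few snoRNA genes were called. On that scale 2 rose and 7 fell, 5.42% of the 166, beside 25.7% of all genes tested (13.7% higher and 12% lower). The groups did not overlap for 10 of the 166, 4 higher and 6 lower in dKO, smaller shares than the 12.6% and 9.74% of all genes. The median was 0.01 over all snoRNA genes, and 0.10 for box C/D, -0.02 for box H/ACA, -0.10 for scaRNA and -0.14 for snoU-named genes. Precision depended on depth, with a median SE of 0.28 for genes of under 300 counts and 0.11 for those of 1000 or more. The share called did too. Of 55 genes with 1000 or more counts, 7 were called (12.7%), 2 higher and 5 lower, with a median of -0.08. With at least 300 but under 1000 counts 1 of 67 was called (1.49%), and under 300 counts 1 of 44 (2.27%). A gene that was not called is therefore not shown to be unchanged. DESeq2 called 3 higher and 8 lower, and limma-voom 4 higher and 7 lower, and each of them called all 9. Without WT 2, WT 3 and WT 4, SNORA32 rose and no other snoRNA gene was called in edgeR (14 higher and 3 lower at an unadjusted p under 0.05), and the median was 0.11. In that fit of 6 libraries, 2.33% of all genes were called higher and 0.972% lower. Its class medians were 0.24 for box C/D, 0.11 for box H/ACA and -0.02 for scaRNA genes, beside -0.01 for all genes, so the box H/ACA median changed sign.

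The part of WT 2, WT 3 and WT 4 in the falls was not tested beyond leaving them out. In CPM these 3 libraries lay above both WT 1 and WT 5 at 61 of 166 snoRNA genes (36.7%), beside 21.9% of all genes tested, and below both at 4 (2.41%), beside 20.8%. They lay above both at 6 of the 7 snoRNA genes that fell. Those 7 were called from these same libraries, which by itself favours high values in WT 2, WT 3 and WT 4. No matching share was taken over all genes that fell, so no conclusion is drawn from the 6 of 7. By class, WT 2, WT 3 and WT 4 lay above both WT 1 and WT 5 at 26.1% of box C/D, 43.7% of box H/ACA and 35.0% of scaRNA genes.

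Both rises were box H/ACA genes, which direct pseudouridylation. SNORA32 had 52.3, 39.5, 42.8 and 46.0 CPM in dKO 1 to 4, against 32.4, 33.8, 31.4, 32.7 and 30.1 CPM in WT 1 to 5. Every dKO library was above every WT library, and the WT libraries lay within a narrow range. Its relative log2 fold change was 0.50 (SE 0.08, adjusted p = 0.0011), and per spike-in count it was 0.93 (SE 0.12, adjusted p = 1.89e-07). It was called under all 18 analysis settings tried on the relative scale, with log2 fold changes of 0.41 to 0.56.

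SNORA25 had 6.14, 5.78, 5.25 and 5.98 CPM in dKO, against 4.44, 4.30, 3.93, 4.74 and 3.82 CPM in WT. Again all dKO libraries were above all WT libraries. The relative log2 fold change was 0.45 (SE 0.11, adjusted p = 0.0096), and 0.49 (adjusted p = 0.115) without WT 2, WT 3 and WT 4; per spike-in count it was 0.88 (SE 0.17, adjusted p = 9.20e-05).

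In human, SNORA32 and SNORA25 lie in introns of TAF1D, which encodes a subunit of the RNA polymerase I initiation complex, together with SNORA1, SNORA8, SNORA18, SNORA40 and SNORD5. All 7 symbols were among the described genes; the set was put together after their values were seen, and their mouse positions were not checked. On the relative scale 2 of the 7 rose, beside 13.7% of all genes. These were SNORA32 and SNORA25, around which the set was built, so that share is no separate result. None of the others was called, with values from -0.02 for SNORA40 to 0.60 for SNORD5 (adjusted p = 0.144). Per spike-in count 6 of 7 rose, beside 61.1% of all genes, the exception being SNORA1 at 0.43 (adjusted p = 0.226). SNORA32 and SNORA25 are among those 6, so this share is no separate result either. Mouse Taf1d itself held 83.4 to 96.9 CPM in dKO, against 70.2 to 77.3 CPM in WT. Its groups did not overlap, and its relative log2 fold change was 0.28 (SE 0.05, adjusted p = 0.0018), or 0.24 (adjusted p = 0.0904) without WT 2, WT 3 and WT 4.

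Among the 7 falls, 3 were box C/D genes of one imprinted neuronal cluster. SNORD115 and SNORD116 are tandem-repeat families of the Snrpn region, which is expressed from the paternal chromosome; loss of SNORD116 in human is tied to Prader-Willi syndrome, and SNORD115 is known for base pairing with the serotonin receptor Htr2c transcript. Reads that align to several places were outside the counts, so counts of such families are uncertain. SNORD116 had 1.49, 1.30, 1.85 and 1.53 CPM in dKO, against 2.14, 3.02, 2.92, 2.66 and 2.49 CPM in WT. All dKO libraries were below all WT libraries, and the relative log2 fold change was -0.78 (SE 0.16, adjusted p = 0.0048).

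SNORD115 had 6.23, 5.53, 6.99 and 9.03 CPM in dKO, against 7.49, 13.0, 14.2, 12.3 and 9.14 CPM in WT. The groups overlapped at dKO 4 and WT 1. The relative log2 fold change was -0.72 (SE 0.19, adjusted p = 0.0174). Snord107, the first sequence shown above, had 4.99, 4.98, 4.74 and 4.46 CPM in dKO, against 5.12, 5.80, 7.27, 6.47 and 6.28 CPM in WT. Its groups did not overlap, though WT 1 lay close to the dKO libraries, and the relative log2 fold change was -0.37 (SE 0.11, adjusted p = 0.0307). It was called under 10 of 18 settings, and the call was lost on leaving out any 1 dKO library, WT 3 or WT 4. SNORD115 lost its call without dKO 1 (adjusted p = 0.0571).

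Snord64, of the same region, was named after its values were seen and was not called, at -0.21 (SE 0.09, adjusted p = 0.126). Snrpn, which encodes a spliceosomal protein at the head of the cluster, fell in CPM, to a mean of 128 in dKO, against 155 in WT (-0.27, SE 0.05, adjusted p = 0.0018). Per spike-in count 0 of the 4 cluster genes passed in edgeR, also at an unadjusted p under 0.05, and DESeq2 and limma-voom called none of the 3 with a relative fall. The values were -0.36 (SNORD116, adjusted p = 0.171), -0.28 (SNORD115, 0.182), 0.05 (Snord107) and 0.22 (Snord64), and Snrpn stood at 0.16 (adjusted p = 0.176). No relative fall of the cluster passed without WT 2, WT 3 and WT 4, with SNORD116 at -0.61 (adjusted p = 0.193), SNORD115 at -0.30 (0.447), Snord107 at -0.27 (0.360) and Snrpn at -0.25 (0.0774).

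Most neuron markers also fell on the relative scale. Of 12 such markers, among them Tubb3, Dcx, Elavl3 and Rbfox3, 11 were tested, of which 8 fell and 0 rose, beside 12% and 13.7% of all genes, with a median of -0.35. Without WT 2, WT 3 and WT 4 the median was -0.28 and 1 fell, beside 0.972% of all genes. The marker that fell in that fit was Dcx (-0.37), while Neurod6 stood at 0.16 and Gap43 at 0.005, neither of them called. Their summed level was 2478 to 2777 CPM in dKO and 2942 to 3685 CPM in WT, and per spike-in count 2 of them rose and 0 fell, beside 61.1% and 0.698% of all genes. These markers were not in the original plan and were chosen with earlier results of these data known. Their part in the values of the Snrpn region was not tested.

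**Figure D3:**
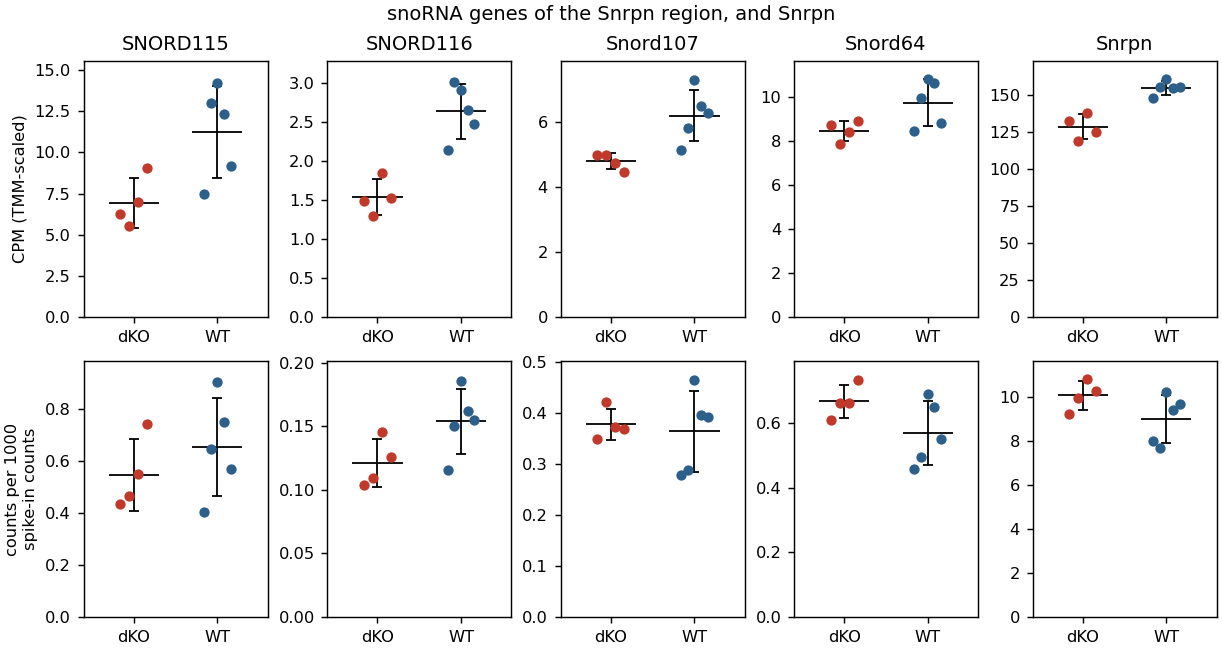
SNORD115, SNORD116, Snord107, Snord64 and Snrpn in each library, in TMM-scaled CPM (top) and per 1000 spike-in counts (bottom), with mean and SD. In CPM the dKO means lie below the WT means for all 5, and per spike-in count the libraries of the groups overlap for all 5.

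A further 3 falls were scaRNA genes. Scarna10, whose human counterpart is a composite guide for the U5 spliceosomal RNA, had 648, 587, 607 and 606 CPM in dKO, against 671, 817, 811, 807 and 668 CPM in WT. The dKO libraries were all lower, but WT 1 and WT 5 lay just above dKO 1, far under the other WT libraries. The relative log2 fold change was -0.30 (SE 0.07, adjusted p = 0.0108), and -0.14 (adjusted p = 0.246) without WT 2, WT 3 and WT 4. Per spike-in count it was 0.13 (SE 0.12, adjusted p = 0.327).

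SCARNA21 had 93.0, 101, 112 and 94.8 CPM in dKO, against 111, 143, 145, 147 and 115 CPM in WT. The groups overlapped at WT 1, and the relative log2 fold change was -0.40 (SE 0.09, adjusted p = 0.0093). SCARNA4 had 2.68, 2.93, 3.74 and 1.95 CPM in dKO, against 3.82, 6.49, 5.67, 6.69 and 3.13 CPM in WT. It overlapped at WT 5, and its relative value was -0.86 (SE 0.25, adjusted p = 0.0269), called under 11 of 18 settings and lost on leaving out dKO 1, dKO 2, dKO 4, WT 2, WT 3 or WT 4. The values were -0.18 (adjusted p = 0.255) for SCARNA21 and -0.26 (adjusted p = 0.632) for SCARNA4 without WT 2, WT 3 and WT 4.

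The remaining fall, SNORA63, a box H/ACA gene, rested on 129 counts in all 9 libraries. It had 0.266, 0.144, 0.371 and 0.183 CPM in dKO, against 0.306, 0.626, 0.688, 0.896 and 0.564 CPM in WT. WT 1 lay among the dKO libraries. Its relative log2 fold change was -1.32 (SE 0.34, adjusted p = 0.0157), and it was the only snoRNA gene called lower per spike-in count (-0.93, SE 0.39, adjusted p = 0.0407), a call that neither DESeq2 nor limma-voom made. The relative value was -0.90 (adjusted p = 0.348) without WT 2, WT 3 and WT 4.

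**Figure D4:**
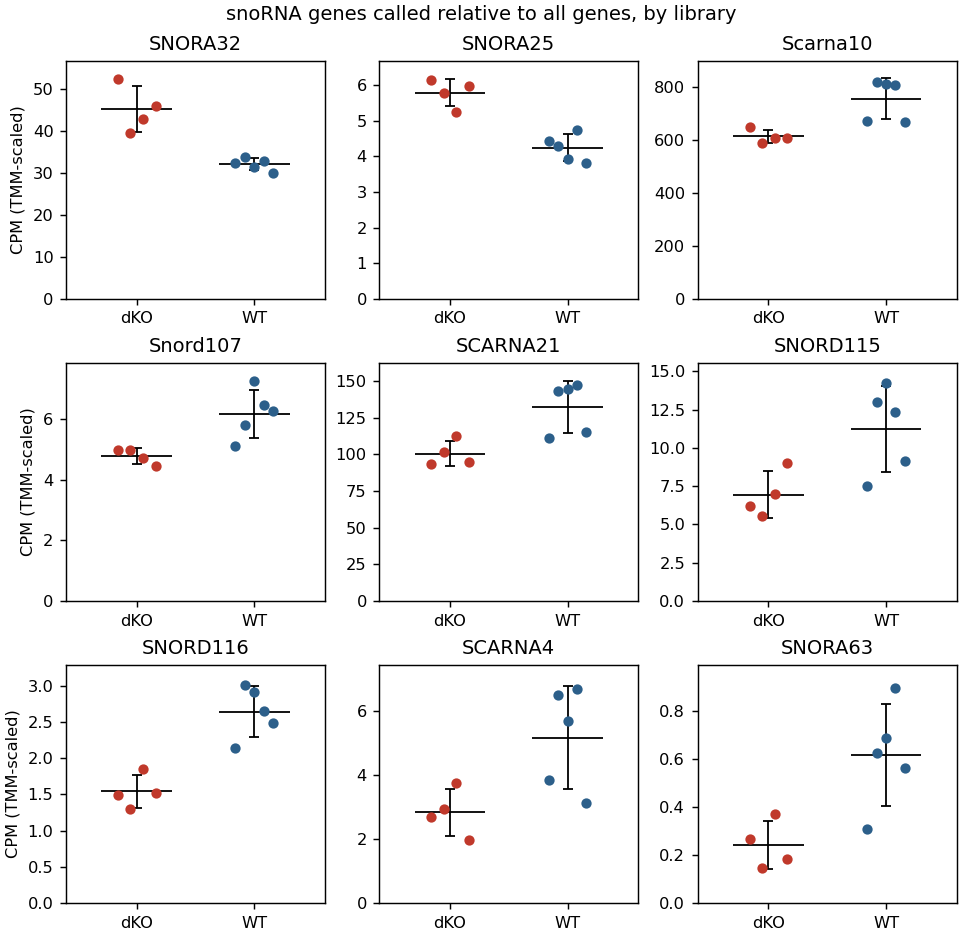
The 9 snoRNA genes called relative to all genes, in TMM-scaled CPM by library, from the largest rise to the largest fall. Points are libraries with mean and SD; SNORA32 and SNORA25 lie above WT in every dKO library, and at most of the 7 lower genes WT 1 or WT 5 lies close to the dKO libraries.

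Next in the ranking were genes that did not pass. Snora31, from the Tpt1 intron, had 2.13, 2.06, 2.51 and 3.30 CPM in dKO, against 1.99, 1.71, 1.74, 1.82 and 1.69 CPM in WT. The groups did not overlap, yet the relative value of 0.47 (SE 0.17) had an adjusted p of 0.0571. SNORA12 stood at -0.18 (adjusted p = 0.0566). Per spike-in count both rose, Snora31 by 0.91 and SNORA12 by 0.25 on the log2 scale. On that scale Snora31 was called under all 17 settings, but SNORA12 under only 8 of 17. At the lower limit of counts, SNORA31 stood at 0.12 (SE 0.42) and Snord82 at -0.85 (SE 0.37, adjusted p = 0.118) on the relative scale, so neither was resolved at that depth.

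Other abundant genes of each class did not pass on the relative scale. Snora73b and SNORA73, of the family that takes part in processing small-subunit ribosomal RNA and not in its modification, stood at -0.03 (SE 0.09) and -0.10 (SE 0.10) on the relative scale. Per 1000 spike-in counts Snora73b had 7.41, 11.0, 11.4 and 9.34 in dKO, against 6.93, 6.60, 8.23, 8.23 and 6.56 in WT. Only dKO 1 reached into the WT range, and the log2 fold change was 0.42 (SE 0.12, adjusted p = 0.0025). SNORA73 rose by 0.34 (adjusted p = 0.0149), and Snora74a, at -0.03 on the relative scale, rose by 0.41 (adjusted p = 0.0052). The small relative values turned positive when WT 2, WT 3 and WT 4 were left out, to 0.082 for Snora73b, 0.071 for SNORA73 and 0.14 for Snora74a, and none of them was called.

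Among box C/D genes, Snord17, a guide for large-subunit ribosomal RNA, stood at -0.10 on the relative scale (0.041 without WT 2, WT 3 and WT 4) and rose by 0.34 per spike-in count (SE 0.12, adjusted p = 0.0120). SNORD113, a repeat family of the imprinted Dlk1 and Dio3 region, had 1.61, 2.02, 2.01 and 1.51 per 1000 spike-in counts in dKO, against 1.13, 1.01, 1.49, 1.28 and 1.28 in WT. Its groups did not overlap, and the log2 fold change was 0.53 (SE 0.13, adjusted p = 0.0009); on the relative scale it was 0.11. SNORD94, a guide for U6 spliceosomal RNA, stood at 0.22 per spike-in count (adjusted p = 0.177). Snord118, the U8 RNA needed for maturation of large-subunit ribosomal RNA, stood at 0.32 (adjusted p = 0.0681). Of the scaRNA genes, Scarna2 rose by 0.35 (SE 0.11, adjusted p = 0.0059), with -0.09 on the relative scale.

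Rises above 2-fold per spike-in count given here were named after their values were seen. Snord110, from the Nop56 intron, had 0.0559, 0.0548, 0.0471 and 0.0906 per 1000 spike-in counts in dKO, against 0.0166, 0.0127, 0.0334, 0.0371 and 0.0320 in WT. Its groups did not overlap, at a log2 fold change of 1.16 (SE 0.35, adjusted p = 0.0054). Scarna8 and SNORD5 rose by 1.08 and 1.02 on the log2 scale, each without overlap. These rises rested on few counts, 161 for Snord110, 108 for Scarna8 and 213 for SNORD5 over the 9 libraries. None of these genes was called on the relative scale.

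Of 29 genes for proteins of the snoRNA particle, in 4 lists, 14 rose and 0 fell relative to all genes, beside 13.7% of all genes that rose, and the others did not pass. Per spike-in count all 29 rose, beside 61.1% of all genes. All 4 box C/D core genes rose on the relative scale. Nop58, a core scaffold protein, averaged 195 CPM in dKO and 140 CPM in WT (log2 fold change 0.47, SE 0.06, adjusted p = 0.0002), and the methyltransferase gene Fbl rose by 0.37 (adjusted p = 0.0119). Nop56 rose by 0.19 and Nhp2l1, which binds the C/D motif, by 0.14.

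Of the 4 box H/ACA core genes 3 rose. Dkc1, the gene of dyskerin, averaged 113 CPM in dKO and 88.9 CPM in WT (0.35, SE 0.05, adjusted p = 0.0005). Gar1 rose by 0.30 and Nhp2 by 0.25, and Nop10 stood at 0.13 (adjusted p = 0.105). Of the 14 assembly and Cajal body genes 6 rose (Naf1 by 0.38, and Nolc1, Rrp9, Ruvbl1, Ruvbl2 and Znhit6 by 0.18 to 0.22), and of the 7 processing and turnover genes only Dis3, a subunit of the RNA exosome, did so (0.24). Without WT 2, WT 3 and WT 4, 2 of the 29 rose relative to all genes, beside 2.33% of all genes.

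Host genes were compared with the snoRNA they carry. GENCODE placed 66 of the 71 matched genes within a host on the same strand, 57 of them within a protein-coding gene, and 54 had a host in the files, from 47 distinct hosts. Of the 47 hosts, 24 rose and 2 fell on the relative scale (55.3%), beside 25.7% of all genes, with a median of 0.17, and 44 rose per spike-in count, beside 61.1%. Only 2 of the 47 rose and 0 fell on the relative scale without WT 2, WT 3 and WT 4, beside 2.33% and 0.972% of all genes, with a median of 0.14. The 54 snoRNA genes had a relative median of 0.08, and 1 of them, Scarna10, was called. In the 28 pairs whose host rose, the snoRNA median was 0.18; in the 24 pairs whose host was not called it was 0.00; and in the 2 pairs whose host fell it was -0.25. Across the 54 pairs the fold changes had a Pearson r of 0.36, a description over genes that share the same 9 libraries. How far reads of unspliced host RNA enter the snoRNA counts, and so this r, was not tested.

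Individual pairs differed. Snord70 and its host Nop58 had relative values of 0.53 (SE 0.20) and 0.47 (SE 0.06). Snord110 stood at 0.75 (SE 0.30) and its host Nop56 at 0.19 (SE 0.04). Snord17 stood at -0.10 (SE 0.09) while Snx5, its host, rose by 0.31 (SE 0.04), and Snord82 stood at -0.85 (SE 0.37) while Ncl, the gene of nucleolin, rose by 0.30 (SE 0.04). Snora30 and Srcap stood at -0.29 (SE 0.20) and -0.28 (SE 0.08). These pairs were named after their values were seen, apart from Snord17 and Snord82, and the difference within a pair was not tested.

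Hosts of snoRNA clusters, most of them long non-coding, were listed by name, and 11 of 22 were in the files. On the relative scale 3 rose, Gas5 (0.26), Snhg1 (0.23) and Snhg3 (0.45), and 2 fell, Snrpn (-0.27) and Snhg11 (-0.53), beside 13.7% of all genes higher and 12% lower. Gas5, the host of many box C/D snoRNAs, averaged 206 CPM in dKO and 172 CPM in WT (SE of the log2 fold change 0.04, adjusted p = 0.0008). Per spike-in count 8 of the 11 rose and 0 fell, beside 61.1% and 0.698% of all genes. Without WT 2, WT 3 and WT 4, 1 rose and 0 fell on the relative scale, beside 2.33% and 0.972%.

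**Figure D5:**
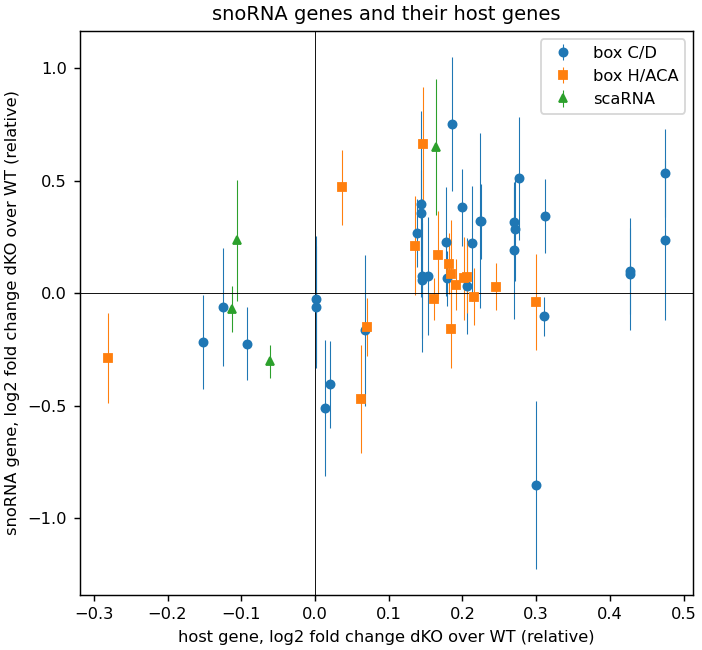
Relative log2 fold change (dKO over WT) of 54 snoRNA genes against that of their host genes, with bars for the SE of the snoRNA value and markers by class. Most hosts lie right of 0, while the snoRNA genes spread on both sides of 0 with wide errors.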

How the data were processed

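The authors deposited 1 file per library with whole-number read counts per gene symbol, not normalized. The build was mm9 and the tools were STAR and HTSeq, per the submitters' processing notes. For versions, annotation and strand setting of the counting, the sources used here give nothing, so a snoRNA gene and an overlapping host exon cannot always be told apart. Of the 66 genes placed within a host, 47 lie in an intron. There, reads of the snoRNA and of unspliced host RNA cannot be told apart either. Spike-ins (92) and the counter's rows for reads outside genes (32.0% to 41.3% in no gene, 15.7% to 18.3% at several places) stayed out of library sizes and tests.

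From the deposited counts, genes were tested in R 4.3.3 with edgeR 4.0.16 (filterByExpr; quasi-likelihood test; threshold of 0.05 on p adjusted by Benjamini-Hochberg over 17182 genes), with TMM for the relative scale and the spike-in total as library size for the per spike-in scale. SE is the log2 fold change divided by the root of F. P-values measure the spread between these embryos, and those per spike-in count share 9 spike-in totals. Class sums got no test. Alternatives were DESeq2 1.42.0, limma 3.58.1 voom, other filters and scalings, a replicate block and leaving libraries out. Members and lists were chosen with earlier results of these data known. Named members were the 12 with the smallest relative p, the most abundant 5 box C/D, 5 box H/ACA and 3 scaRNA genes, and 2 genes on each side of the count minimum; others are said to be named after their values were seen. An item that the rule picks is not reported here. Code was tested on simulated data.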

Additional observations from a re-analysis of the deposited data

Results flagged for a closer look

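Of 56 groups of libraries screened for a library far from the rest of its group, 4 had one; chance gives about 1 in 20. In the dKO group, dKO 1 lay below the others for the box C/D sum, at 16.2 per 1000 spike-in counts against a group median of 19.7, and for the box H/ACA sum, at 48.3 against 61.1. In the WT group, WT 3 was high for SNORD113, at 23.4 CPM against a median of 20.8, and WT 5 was low for Snora73b, at 105.2 CPM against a median of 129.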

How the results depend on the processing

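Leaving out WT 2, WT 3 and WT 4 moved the relative results most. The relative class sums then stood at 0.079 (box C/D), 0.10 (box H/ACA) and -0.081 (scaRNA), 1 snoRNA gene was called higher and 0 lower, 2 snoRNA particle genes were called higher, and 1 listed cluster host was called higher and 0 lower. That fit holds 6 libraries in place of 9, and the cause was not tested further. Limma-voom called 4 snoRNA genes higher on the relative scale. Per spike-in count, no snoRNA gene was called lower by DESeq2, limma-voom, without a filter, or without WT 2, WT 3 and WT 4 (0 in each).

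Leaving out 1 library at a time gave 2 to 4 snoRNA genes higher (4 without WT 2) and 4 to 12 lower (4 without dKO 1, 12 without WT 5) on the relative scale, 3 to 5 listed cluster hosts higher and 1 to 2 lower, and per spike-in count 57 to 79 snoRNA genes higher and 0 to 3 lower. Box C/D sums ran from 0.37 to 0.48 per spike-in count and from -0.07 to -0.01 on the relative scale, box H/ACA sums from 0.36 to 0.49 and from -0.10 to -0.01, and scaRNA sums from 0.15 to 0.27 and from -0.27 to -0.20.

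Same-numbered libraries did not deviate together (correlations -0.13, -0.13, -0.22 and 0.11), so the numbers do not pair them. With the replicate block, 2 snoRNA genes were called higher and 10 lower on the relative scale (7 of the 9 calls kept), 61 higher and 1 lower per spike-in count, and 9 snoRNA particle genes higher on the relative scale.

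Per spike-in count, where neither was called as reported, SNORD115 was called lower under 2 of 17 settings and SCARNA4 under 4. Without WT 2, WT 3 and WT 4, SNORD115 stood at 0.14 and SCARNA4 at 0.16 per spike-in count, and Snord17 at 0.041, Snora73b at 0.082, SNORA73 at 0.071 and Snora74a at 0.14 on the relative scale. With 1 library left out, SCARNA21 ran from -0.039 to 0.12 and Snord107 from -0.030 to 0.15 per spike-in count, and on the relative scale Snora73b ran from -0.11 to 0.044, Snora74a from -0.092 to 0.023 and SNORA31 from -0.24 to 0.36. Of the other single-gene values, 643 kept their side of the threshold, 45 lost the call and 17 gained one. Counts under 300 limited precision, with a median SE of 0.28.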
